A study of Glycine max with 10 samples.

Results

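The numbered bZIP transcription factors of soybean were followed in the shoot apical meristem (SAM) while short days (SDs) turned it into an inflorescence meristem. The members were the soybean probe sets of the Affymetrix Soybean GeneChip whose annotated gene symbol begins with BZIP and a number, with BZIP1 left out. A probe set is a group of short probes on the array that together measure the transcript of a gene. The rule found 93 probe sets among 37593 soybean probe sets, of which 9047 carry any gene symbol, so bZIP genes without a numbered symbol were not counted. Of the 93, 87 are listed with 1 symbol and stand for 57 gene symbols, and the other 6 are listed with 2 or 3 symbols and are called by probe set alone.

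The study grew plants of soybean cultivar Bragg in a glasshouse under long days for 10 days (0 SD), when the SAM was vegetative. It then gave them 1, 2, 4 or 6 SDs (10 h of light a day, 24 °C) in a growth chamber. Each of the 5 time points had 2 arrays from separate tissue collections, and SAMs were hand dissected without leaf primordia, about 70 for a time point by the labels, while the methods of the study give a somewhat larger number. At 6 SDs the tissue was the new inflorescence meristem with its adjacent floral meristem, while the earlier collections were dome-shaped SAMs. The number of SDs and the age of the plants rise together, and the move to the chamber lies between 0 and 1 SD. In comparisons with 0 SD none of these can be told apart. Between time points in the chamber, the number of SDs and age cannot be told apart. The same holds for the tissue taken in any comparison with 6 SDs. Because every value comes from dissected tissue in bulk, fewer cells of a type and less RNA per cell cannot be told apart either.

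bZIP proteins are transcription factors that pair through a leucine zipper and grip DNA, often at sites with an ACGT core, through the basic region beside it. In Arabidopsis the bZIP protein FD waits in the shoot apex for FT, the mobile flowering signal made in leaves, and together with 14-3-3 proteins they switch on floral identity genes. Other members of the family carry abscisic acid (ABA) signals through ABA-responsive promoter elements, light signals (HY5 and its relatives) or salicylic acid signals (the TGA factors). The numbers in soybean symbols do not follow those of Arabidopsis, so BZIP46 of soybean, for example, is not named after a gene of the same number in Arabidopsis.

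All values are log2 intensities after robust multiarray averaging (RMA), so a difference of 1 is a doubling, and levels of different probe sets cannot be compared as amounts of RNA. A member entered the tests when it was brighter than the middle soybean probe set, array by array, in at least 2 arrays. This held for 56 of the 93 members (60.2%), against 54.2% of all soybean probe sets. At least 1 probe set was tested for 39 of the 57 symbols. The arrays had medians from 7.31 to 7.46 and interquartile ranges from 3.94 to 4.02, except that replicate 2 of 6 SDs had an interquartile range of 3.60. The tissue carried KNOX homeobox transcripts, which mark the shoot meristem, at 9.71 to 11.90 in all arrays (LOC102660463 and H1), while CLV1A and NARK were below the limit for testing. The 3 floral probe sets annotated as AP1, FRUITFUL and SEP3 all rose by 6 SDs (limma adjusted p of 0.00305 or less), as did both KNOX probe sets (differences of 1.40 and 1.41 between 6 and 0 SD). In comparisons with 6 SDs this change of tissue cannot be told apart from the number of SDs or age. Its part in the changes of the members was not tested. Green-tissue transcripts were bright in every array, with the highest CAB3 probe set at 13.60 to 14.16, and none of the 7 tested green markers passed limma's test at any time (1 had an unadjusted p below 0.05 between 6 and 0 SD). Their summed log2 level over 8 probe sets was 84.9 and 87.3 at 6 SDs, against 88.2 and 86.9 at 0 SD.

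Among the 56 tested members, 7 probe sets passed a test, and their calls came at 6 SDs. At 6 SDs, 3 members were higher than at 0 SD, which is 5.36% of the 56 against 3.67% of all 20366 tested probe sets, and 4 members were lower, 7.14% against 2.79%. The last background depended on which array was left out. It rose without replicate 1 of 6 SDs, where the share of the members lay below it. Without any other single array it fell, and the share of the members lay above it. The members that rose were Gma.8383.1.S1_at, BZIP105 and BZIP80, and those that fell were BZIP46, BZIP47 and BZIP71, the last with both of its probe sets. Some of these entered the tests only through time points where they were high. These were Gma.8383.1.S1_at (6 SDs), BZIP46 and BZIP47 (0, 1 and 2 SDs) and the dimmer BZIP71 probe set (0 and 2 SDs). With the brightness limit set at all 10 arrays, 1 of 44 members was higher (2.27%, against 2.63% of all) and 1 lower (2.27%, against 2.58%). The test was limma's moderated test with Benjamini-Hochberg adjustment over all tested probe sets and a threshold of 0.05. The whole time course was also tested with limma by a cubic curve in the number of SDs, and 5 members passed (8.93%) against 4.30% of all probe sets. Of these, 2 were higher at 6 SDs than at 0 SD (3.57%, against 2.89% of all) and 3 were lower (5.36%, against 1.40%). The study had picked Gma.8383.1.S1_at, BZIP46, BZIP47 and BZIP71 from the same arrays, so their directions are not independent evidence.

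**Figure D1:**
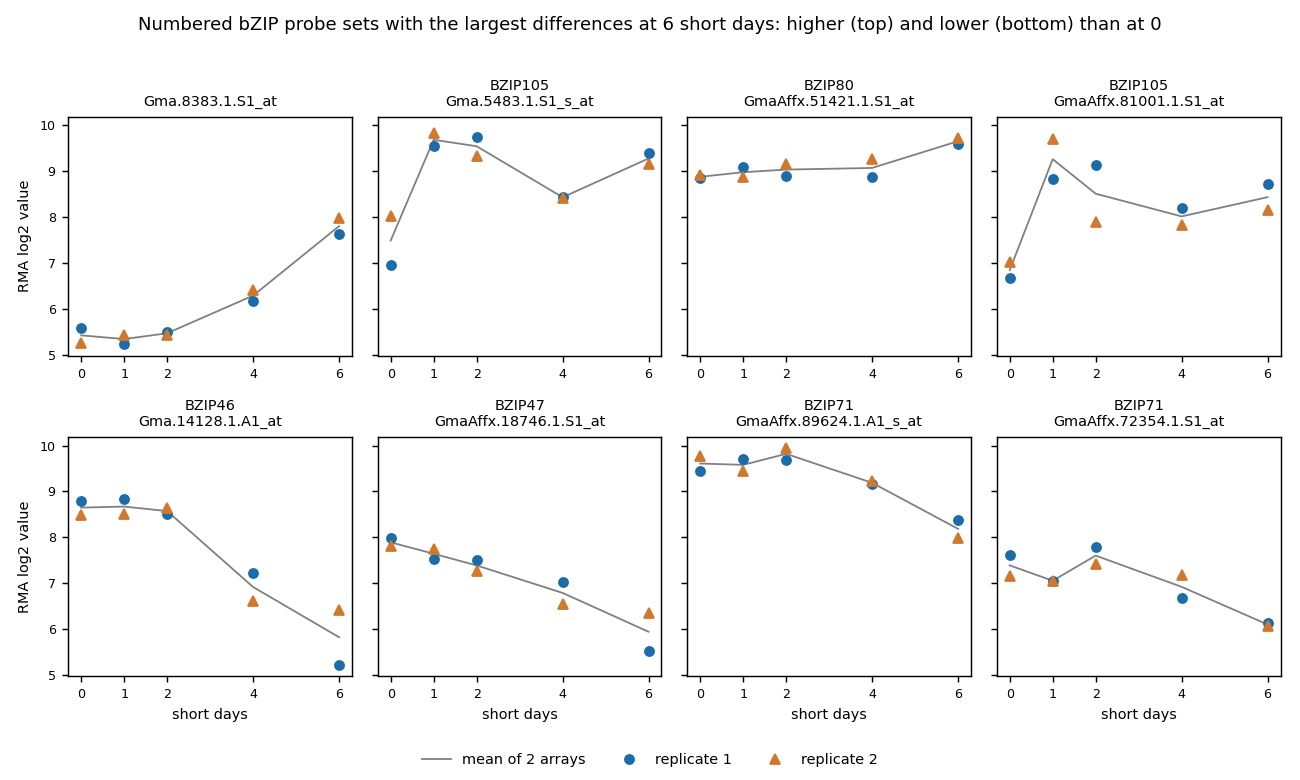
RMA log2 value (vertical axis) against the number of short days (horizontal axis) for 8 numbered bZIP probe sets, with circles for replicate 1, triangles for replicate 2 and a line through the mean of the 2 arrays. The top row holds the members higher at 6 SDs than at 0 SD, of which the second BZIP105 probe set (GmaAffx.81001.1.S1_at) did not pass the test, and the bottom row holds the 4 that fell; Gma.8383.1.S1_at reached 7.63 and 7.98 at 6 SDs, and BZIP46 reached 5.22 and 6.43.

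The largest rise between 0 and 6 SDs was that of Gma.8383.1.S1_at, a probe set listed with 2 numbered bZIP symbols, so that the gene copies it measures are not separated. Its log2 values were 5.59 and 5.26 at 0 SD, 5.25 and 5.44 at 1 SD, 5.51 and 5.44 at 2 SDs, 6.18 and 6.41 at 4 SDs, and 7.63 and 7.98 at 6 SDs. It was flat through 2 SDs, both 4 SD arrays lay above all earlier arrays, and both 6 SD arrays lay above those of 4 SDs. The difference of 6 SDs from 0 SD was 2.38 ± 0.18 on the log2 scale (limma, SE, n = 2 arrays each, adjusted p = 0.000865), a 5.20-fold rise, and the adjusted p of its time course was 0.000367. It was also the only member past the test between 6 and 4 SDs, with a difference of 1.51 and a limma adjusted p of 0.0229 (1.79% of the 56 members, against 0.412% of all probe sets). Between 4 SDs and 0 SD its difference was 0.87 with a limma adjusted p of 0.257. This probe set passed the limit for testing through its 6 SD arrays alone. In the fit of all probe sets with no such limit, its limma adjusted p for 6 SDs against 0 SD was 0.000819.

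Leaving arrays out could not test whether the 6 SD call of Gma.8383.1.S1_at hung on either 6 SD array. With either of them left out, this probe set fell below the limit for testing. It was fitted there only by keeping the probe sets tested with all arrays, a choice made after seeing the data. Its place among those probe sets rests on the same 6 SD arrays. In those fits the difference from 0 SD was 2.56 without replicate 1 of 6 SDs and 2.20 without replicate 2. With arrays of the other time points left out in turn, the difference ran from 2.21 to 2.54. The comparison of 6 with 4 SDs lost its call without either array of 1, 2 or 4 SDs. In the fit without replicate 2 of 6 SDs, the difference between 6 and 4 SDs was 1.34.

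Among 5740 tested probe sets with 1 symbol, the 5 whose time-point means were most like those of Gma.8383.1.S1_at had Pearson correlations of at least 0.998, after rounding, over the 5 time points, given as a description. Among them was CKX3, which encodes a cytokinin oxidase, an enzyme that breaks down cytokinin, at r = 0.998 with a difference of 2.12 between 6 and 0 SD. The others had only a locus number as their gene symbol: LOC100795029 (difference of 1.05), LOC100794039 (0.65), LOC100305822 (0.63) and LOC100796888 (1.28). The paper names the probe set of LOC100796888 among auxin-responsive proteins that rose late in the time course, from the same arrays. All of these correlations share the same 10 arrays.

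BZIP105 had another course, with its highest values at the first time points in the chamber. Its probe set Gma.5483.1.S1_s_at had values of 6.95 and 8.03 at 0 SD, 9.54 and 9.83 at 1 SD, 9.75 and 9.34 at 2 SDs, 8.45 and 8.42 at 4 SDs, and 9.40 and 9.16 at 6 SDs. Both 0 SD arrays lay below all 8 later arrays, and the 4 SD arrays lay below those of 1, 2 and 6 SDs. The difference from 0 SD was 1.79 ± 0.32 at 6 SDs (limma, SE, n = 2 arrays each, adjusted p = 0.0176), a 3.45-fold rise, and the adjusted p of the time course was 0.0156. The earlier differences were larger or smaller but did not pass the test: 2.20 at 1 SD, 2.05 at 2 SDs and 0.94 at 4 SDs, with limma adjusted p-values of 0.0581, 0.0861 and 0.602. The 0 SD arrays of this probe set were 1.08 apart. Without replicate 1 of 0 SD the 6 SD difference was no longer past the test, nor without replicate 2 of 6 SDs, with a highest limma adjusted p of 0.0567 and a range of differences from 1.25 to 2.33 over all arrays left out in turn. When the same 20366 probe sets were kept, its adjusted p without replicate 2 of 6 SDs was 0.0469.

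BZIP105 has another tested probe set, also with its lowest mean at 0 SD and its highest at 1 SD, and a dim probe set below the limit for testing. GmaAffx.81001.1.S1_at had values of 6.67 and 7.02 at 0 SD, 8.83 and 9.70 at 1 SD, 9.14 and 7.89 at 2 SDs, 8.21 and 7.83 at 4 SDs, and 8.73 and 8.15 at 6 SDs. Its arrays at 0 SD were again the lowest of the 10. The 2 SD arrays were 1.25 apart, and the lower lay between the 4 SD arrays. The limma adjusted p of its time course was 0.152. The difference from 0 SD was 2.42 at 1 SD, the largest of any member in any comparison with 0 SD in the direction of a rise, with a limma adjusted p of 0.108. At 6 SDs it was 1.59 ± 0.43 (limma, SE, n = 2 arrays each, adjusted p = 0.0661). The dim probe set, GmaAffx.90622.1.S1_at, had 6.87 and 7.32 at 1 SD and 7.34 and 6.16 at 2 SDs, against 6.06 and 6.26 at 0 SD.

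BZIP80 rose least and only at the end. GmaAffx.51421.1.S1_at had values of 8.85 and 8.91 at 0 SD, 9.09 and 8.88 at 1 SD, 8.91 and 9.17 at 2 SDs, 8.87 and 9.28 at 4 SDs, and 9.59 and 9.73 at 6 SDs. Both 6 SD arrays were above all the others, which lay between 8.85 and 9.28. The difference of 6 SDs from 0 SD was 0.78 ± 0.17 (limma, SE, n = 2 arrays each, adjusted p = 0.0371), a 1.71-fold rise, while the time course had an adjusted p of 0.0656. The call was lost without either array of 0 or 1 SD and without replicate 2 of 6 SDs, with adjusted p-values up to 0.162. The other BZIP80 probe set, GmaAffx.90394.1.S1_at, was dim, at 5.15 to 5.53.

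BZIP46 fell most. Gma.14128.1.A1_at had values of 8.80 and 8.49 at 0 SD, 8.83 and 8.51 at 1 SD, 8.51 and 8.63 at 2 SDs, 7.21 and 6.62 at 4 SDs, and 5.22 and 6.43 at 6 SDs. The 6 arrays through 2 SDs lay within 0.33 of one another, and all 4 later arrays lay below them. The difference of 6 SDs from 0 SD was -2.82 ± 0.37 (limma, SE, n = 2 arrays each, adjusted p = 0.00604), which leaves 0.141 of the 0 SD level, and the adjusted p of the time course was 0.0048. At 4 SDs the difference from 0 SD was -1.73, with a limma adjusted p of 0.274. This probe set passed the limit for testing through arrays of 0, 1 and 2 SDs alone. With no such limit, its limma adjusted p for 6 SDs against 0 SD was 0.00623. The 6 SD arrays were 1.20 apart, and both were below the 4 SD arrays. Without replicate 1 of 0 SD the limma adjusted p of the 6 SD difference was 0.0519.

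BZIP47 fell more evenly. It was matched in the annotation of the study to bZIP67 of Arabidopsis, a factor known there for its part in seed maturation. GmaAffx.18746.1.S1_at had values of 7.98 and 7.81 at 0 SD, 7.54 and 7.75 at 1 SD, 7.51 and 7.26 at 2 SDs, 7.02 and 6.56 at 4 SDs, and 5.53 and 6.36 at 6 SDs. Its mean was lower at each later time point, and the arrays of 0, 2, 4 and 6 SDs did not overlap one another. The difference of 6 SDs from 0 SD was -1.95 ± 0.27 (limma, SE, n = 2 arrays each, adjusted p = 0.00781), leaving 0.259 of the 0 SD level, and the time course had an adjusted p of 0.0102. Differences at 1, 2 and 4 SDs from 0 SD were -0.25, -0.50 and -1.10, none past the test. This probe set also passed the limit for testing through arrays of 0, 1 and 2 SDs alone. With no such limit, its limma adjusted p for 6 SDs against 0 SD was 0.00833. Without replicate 1 of 0 SD the limma adjusted p at 6 SDs was 0.0599.

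BZIP71 was the only gene with several tested probe sets of which more than 1 passed. The annotation of the study relates it to the factors that bind ABA-responsive elements, which in Arabidopsis switch on genes in response to ABA. The brighter probe set, GmaAffx.89624.1.A1_s_at, had values of 9.44 and 9.77 at 0 SD, 9.70 and 9.46 at 1 SD, 9.69 and 9.95 at 2 SDs, 9.16 and 9.22 at 4 SDs, and 8.38 and 7.99 at 6 SDs. The dimmer, GmaAffx.72354.1.S1_at, had 7.62 and 7.16 at 0 SD, 7.05 and 7.06 at 1 SD, 7.78 and 7.42 at 2 SDs, 6.67 and 7.17 at 4 SDs, and 6.14 and 6.06 at 6 SDs. In each, both 6 SD arrays were below all 8 earlier arrays, and the 2 SD mean was the highest.

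The 6 SD level of the brighter BZIP71 probe set differed from 0 SD by -1.42 ± 0.19 (limma, SE, n = 2 arrays each, adjusted p = 0.00645), and that of the dimmer by -1.29 ± 0.22 (adjusted p = 0.015). These leave 0.373 and 0.409 of the 0 SD level. The time course of the brighter probe set had an adjusted p of 0.00717, and that of the dimmer 0.0633. The dimmer passed the limit for testing through arrays of 0 and 2 SDs alone. No single array left out took away the call of the brighter probe set, whose difference then ranged from -1.62 to -1.23. The dimmer lost its call without replicate 1 of 0 SD or replicate 2 of 6 SDs. The ending of the brighter probe set marks probes that may match more than 1 transcript, and so does that of Gma.5483.1.S1_s_at for BZIP105.

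No member passed the test in either direction at 1, 2 or 4 SDs against 0 SD, or at 4 SDs against 2 SDs. The background was also sparse: at 1 SD 0.142% of all tested probe sets were called higher and 0.0246% lower, at 2 SDs 0.108% and 0.0295%, at 4 SDs 0.0393% and 0.0295%, and between 4 and 2 SDs 0.00491% each way. With an unadjusted limma p below 0.05, 6 of the 56 members (10.7%) differed at 1 SD against 7.18% of all, 10 (17.9%) at 2 SDs against 9.11%, 9 (16.1%) at 4 SDs against 6.53%, and 7 (12.5%) between 4 and 2 SDs against 6.69%. At 6 SDs against 0 SD this held for 18 members (32.1%), against 27.7% of all. Between 6 and 4 SDs 0 members were called lower (0.0786% of all), and 13 members (23.2%) had an unadjusted p below 0.05 in either direction, against 16.5% of all.

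Across all 56 tested members, differences from 0 SD ranged from -0.72 to 2.42 at 1 SD, from -0.91 to 2.05 at 2 SDs, from -1.73 to 1.95 at 4 SDs and from -2.82 to 2.38 at 6 SDs. The median difference of the members was 0.05 at 1 SD, 0.15 at 2 SDs, 0.09 at 4 SDs and 0.12 at 6 SDs, and that of all tested probe sets was -0.04, -0.02, -0.02 and -0.13 at the same times. All of these share the 2 arrays of 0 SD. At 6 SDs 36 members lay above 0 SD and 20 below. Both 6 SD arrays were above both 0 SD arrays for 17 members (30.4%, against 16.7% of all) and below both for 11 (19.6%, against 35.9%), while 28 overlapped. Counted in the same way, 13 members were higher at 1 SD than at 0 SD (23.2%, against 17.5% of all) and 7 lower (12.5%, against 25.8%), 20 higher at 2 SDs (35.7%, against 17.5%) and 5 lower (8.93%, against 21.5%), and 16 higher at 4 SDs (28.6%, against 17.7%) and 12 lower (21.4%, against 24.0%). Between 4 and 2 SDs 10 members were higher (17.9%, against 21.3%) and 17 lower (30.4%, against 22.2%). Between 6 and 4 SDs 13 were higher (23.2%, against 14.4%) and 13 lower (23.2%, against 34.5%).

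**Figure D2:**
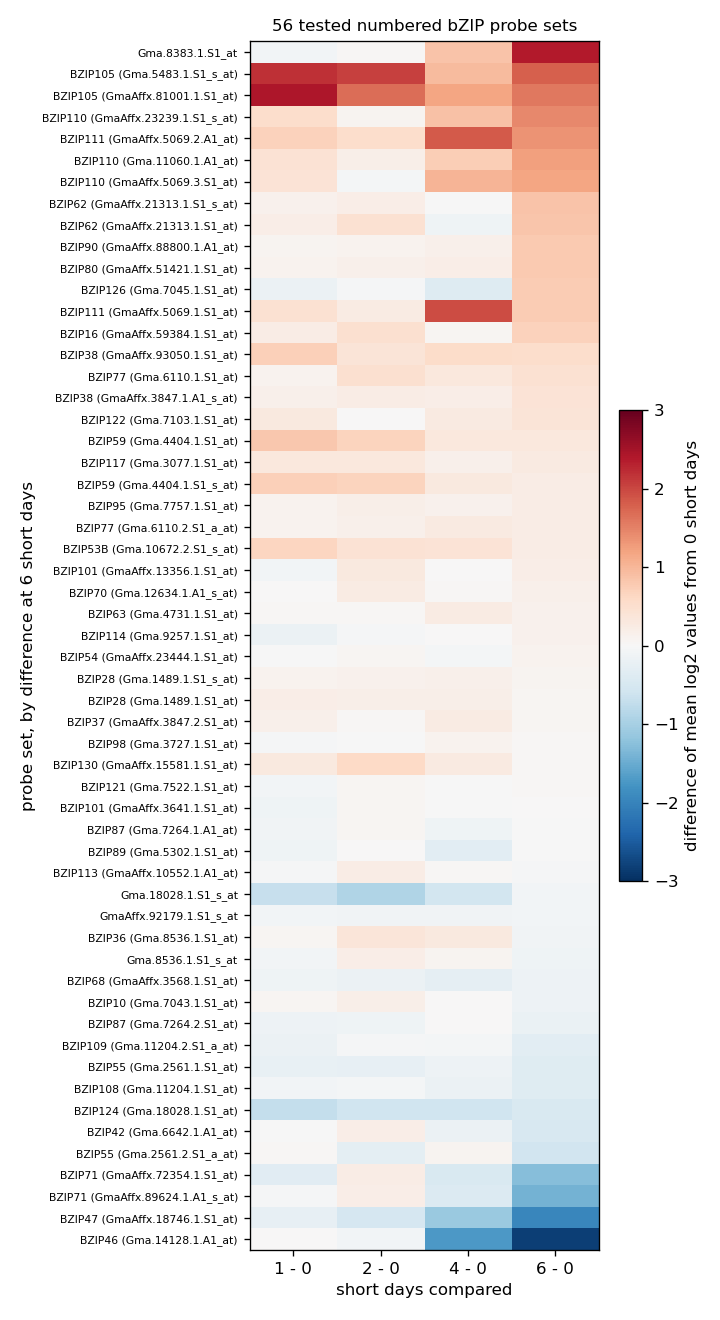
Difference of the mean log2 value of each later time point from that of 0 short days (columns 1, 2, 4 and 6 SDs) for the 56 tested numbered bZIP probe sets (rows, ordered by the difference at 6 SDs), with red for higher and blue for lower than 0 SD. BZIP105 was already high at 1 SD (2.20 and 2.42), BZIP111 at 4 SDs (1.83 and 1.95), and the falls of BZIP46, BZIP47 and BZIP71 deepened to 6 SDs.

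The lowest time-point mean fell at 0 SD for 25 of the 56 members, while 18.9% of all tested probe sets had theirs there, and at 6 SDs for 14 members, where 47.4% of all had theirs. The highest mean fell at 2 SDs for 15 members (26.8%, against 23.4% of all), at 6 SDs for 15 (26.8%, against 18.4%) and at 0 SD for 8 (14.3%, against 29.1%). The 5 means of a member spanned 0.48 at the median, from 0.11 to 2.85, against a median of 0.41 for all tested probe sets. A span above 1 was found in 13 members (23.2%, against 7.81% of all), and a span below 0.5 in 29 (51.8%, against 64.2%).

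Besides the members that passed, 7 tested probe sets had means that spanned more than 1, and in all 7 the replicates of some time point were more than 1 apart. BZIP110 has been linked to salt tolerance from its overexpression in Arabidopsis, and its 3 probe sets were all higher at 6 SDs without passing the test. The brightest, Gma.11060.1.A1_at, had 10.46 and 9.42 at 0 SD, 10.36 and 10.38 at 1 SD, 10.14 and 10.07 at 2 SDs, 10.59 and 10.74 at 4 SDs, and 11.60 and 10.72 at 6 SDs. Its 6 SD difference from 0 SD was 1.23 ± 0.36 (limma, SE, n = 2 arrays each, adjusted p = 0.0763). The differences of the other BZIP110 probe sets were 1.44 for GmaAffx.23239.1.S1_s_at and 1.18 for GmaAffx.5069.3.S1_at (limma adjusted p = 0.0947 and 0.239).

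BZIP111 had its highest mean at 4 SDs in both of its probe sets, which share the first part of their name with a BZIP110 probe set. GmaAffx.5069.2.A1_at had 8.52 and 7.56 at 0 SD, 8.80 and 8.65 at 1 SD, 8.55 and 8.56 at 2 SDs, 9.71 and 10.03 at 4 SDs, and 10.24 and 8.54 at 6 SDs. GmaAffx.5069.1.S1_at had 6.75 and 5.67 at 0 SD, 6.86 and 6.48 at 1 SD, 6.73 and 6.19 at 2 SDs, 7.92 and 8.40 at 4 SDs, and 8.32 and 5.61 at 6 SDs. The 4 SD arrays were 0.32 and 0.48 apart and above all earlier arrays in both. The 6 SD arrays were 1.70 and 2.71 apart, with replicate 2 the lower. The 4 SD differences from 0 SD were 1.83 and 1.95, with limma adjusted p-values of 0.447 and 0.692.

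At 6 SDs, 7 tested members had replicates more than 1 apart (12.5%, against 5.16% of all), at 0 SD 5 had (8.93%, against 2.29%) and at 2 SDs 2 had (3.57%, against 1.96%), but none at 1 or 4 SDs. The median gap between replicates at 6 SDs was 0.38 for the members and 0.27 for all tested probe sets, and at 0 SD it was 0.29 and 0.20. BZIP126 went the other way from BZIP111: Gma.7045.1.S1_at had 7.82 and 9.09 at 6 SDs, against 7.77 and 7.61 at 0 SD. Replicate 2 of 6 SDs was also the array with the narrower spread over all probe sets, and its part in these values was not tested.

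**Figure D3:**
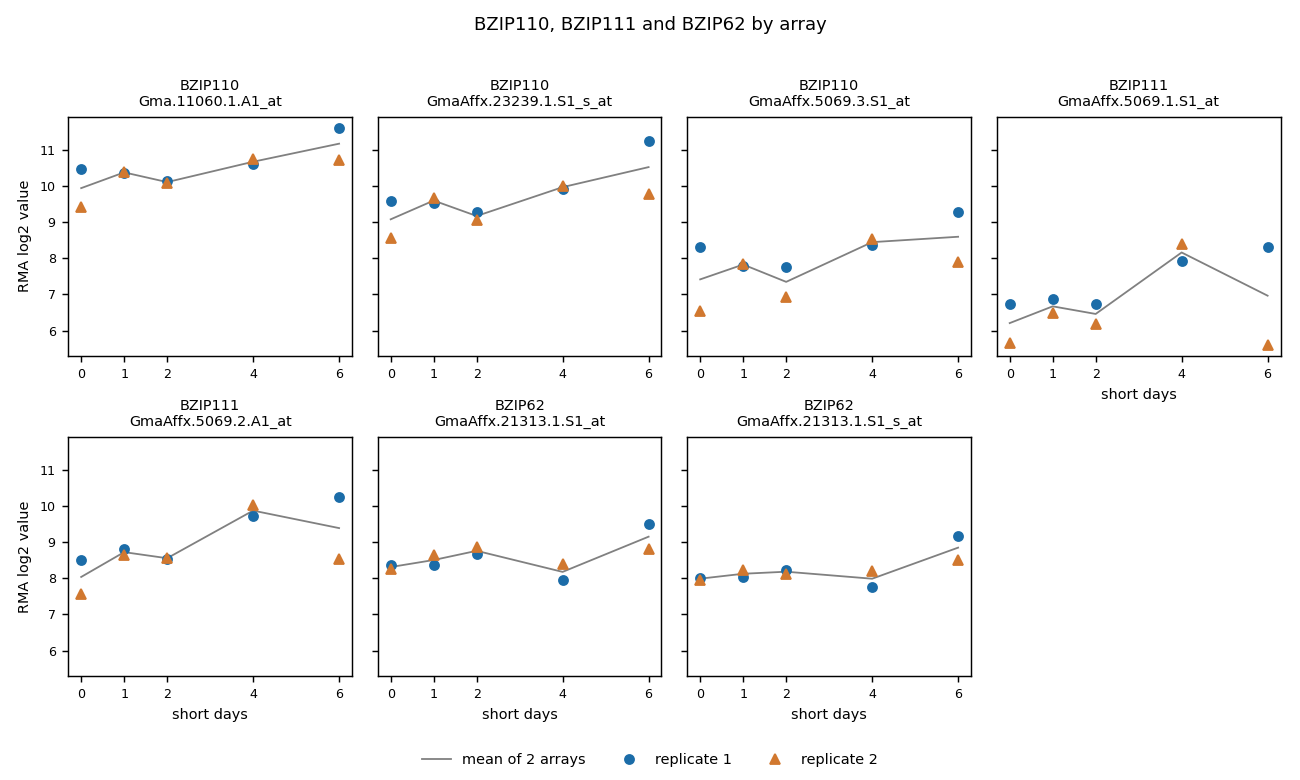
RMA log2 value (vertical axis) against the number of short days (horizontal axis) for the tested probe sets of BZIP110, BZIP111 and BZIP62, with circles for replicate 1, triangles for replicate 2 and a line through the mean of the 2 arrays. In BZIP110 and BZIP111 replicate 2 lies below replicate 1 at both 0 and 6 SDs, and above it at 4 SDs.

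BZIP62, which lowered ABA responses when overexpressed in Arabidopsis, was higher at 6 SDs in both tested probe sets, just short of the test. GmaAffx.21313.1.S1_s_at had 8.02 and 7.96 at 0 SD, 8.02 and 8.23 at 1 SD, 8.24 and 8.13 at 2 SDs, 7.77 and 8.21 at 4 SDs, and 9.18 and 8.52 at 6 SDs. Both 6 SD arrays were above all others. The difference from 0 SD was 0.86 ± 0.23 (limma, SE, n = 2 arrays each, adjusted p = 0.0641), and that of GmaAffx.21313.1.S1_at was 0.84 (limma adjusted p = 0.0775). In GmaAffx.21313.1.S1_at replicate 2 of 6 SDs (8.81) lay just below replicate 2 of 2 SDs (8.85). A dim BZIP62 probe set, GmaAffx.92200.1.S1_at, had 6.39 and 5.20 at 6 SDs, against 5.95 and 5.18 at 0 SD. BZIP16 had both 6 SD arrays above the rest, 8.86 and 8.83, against 8.03 and 8.27 at 0 SD (limma adjusted p = 0.0784). The tested BZIP90 probe set, GmaAffx.88800.1.A1_at, was bright enough only through its 6 SD arrays and had 7.47 and 8.21 there, against 7.18 and 6.92 at 0 SD (limma adjusted p = 0.089).

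BZIP59 and BZIP124 differed most from 0 SD at 1 SD. BZIP59 was among the brightest: Gma.4404.1.S1_s_at had 11.63 and 11.09 at 0 SD, 12.28 and 11.88 at 1 SD, 11.94 and 12.13 at 2 SDs, 11.73 and 11.56 at 4 SDs, and 11.82 and 11.37 at 6 SDs. Its 1 and 2 SD arrays were above all the others, and its second tested probe set had differences from 0 SD of the same sign. BZIP124 ran the opposite way, with 10.21 and 10.14 at 0 SD, 9.64 and 9.28 at 1 SD, 9.50 and 9.67 at 2 SDs, 9.40 and 9.75 at 4 SDs, and 9.61 and 9.84 at 6 SDs in Gma.18028.1.S1_at. Its 0 SD arrays were above all 8 later arrays. The limma adjusted p of the time course was 0.191 for BZIP59 and 0.199 for BZIP124, so neither passed.

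Of the 57 symbols, 22 had several probe sets, and in 19 of these all probe sets, dim ones included, had 6 SD differences from 0 SD of the same sign. The exceptions were BZIP70, BZIP90 and BZIP94. Several tested probe sets were available for 12 symbols. Among them BZIP105, BZIP110, BZIP111 and BZIP62 lay highest and BZIP71 lowest. Probe sets of a gene are not replicates, since they were measured on the same arrays.

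**Figure D4:**
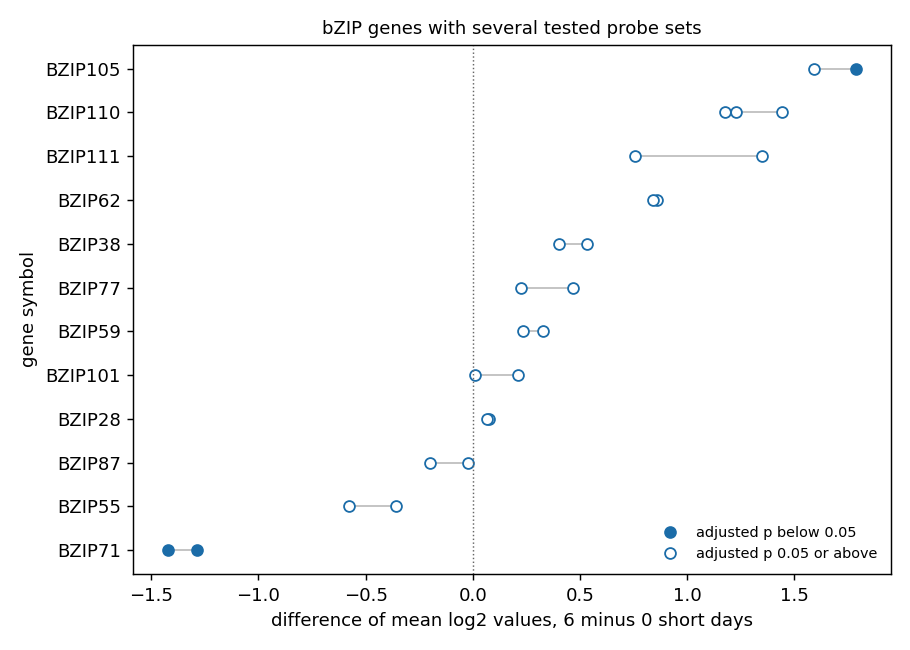
Difference of mean log2 values between 6 and 0 short days (horizontal axis) for each tested probe set of the 12 bZIP symbols with several (vertical axis), with filled circles for limma adjusted p below 0.05 and open circles for the others. In each of the 12 symbols the tested probe sets lie on the same side of 0, and the BZIP71 probe sets, at -1.42 and -1.29, are the only pair that is filled throughout.

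Steady members at a high level were those above the 75th percentile of the soybean probe sets in all 10 arrays, with means that spanned less than 0.5 and no test passed. This held for 12 of the 56 tested members (21.4%), against 29.5% of all tested probe sets. They hold probe sets of 10 single symbols and 1 probe set with 2 symbols: BZIP28 (2 probe sets), BZIP37, BZIP38, BZIP54, BZIP55, BZIP63, BZIP87, BZIP95, BZIP98 and BZIP101, and Gma.8536.1.S1_s_at. All their arrays lay between 9.17 and 11.42, and their spans ran from 0.14 to 0.40, with a median of 0.23. In all, 16 members (28.6%) were above the 75th percentile throughout, against 36.8% of all.

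**Figure D5:**
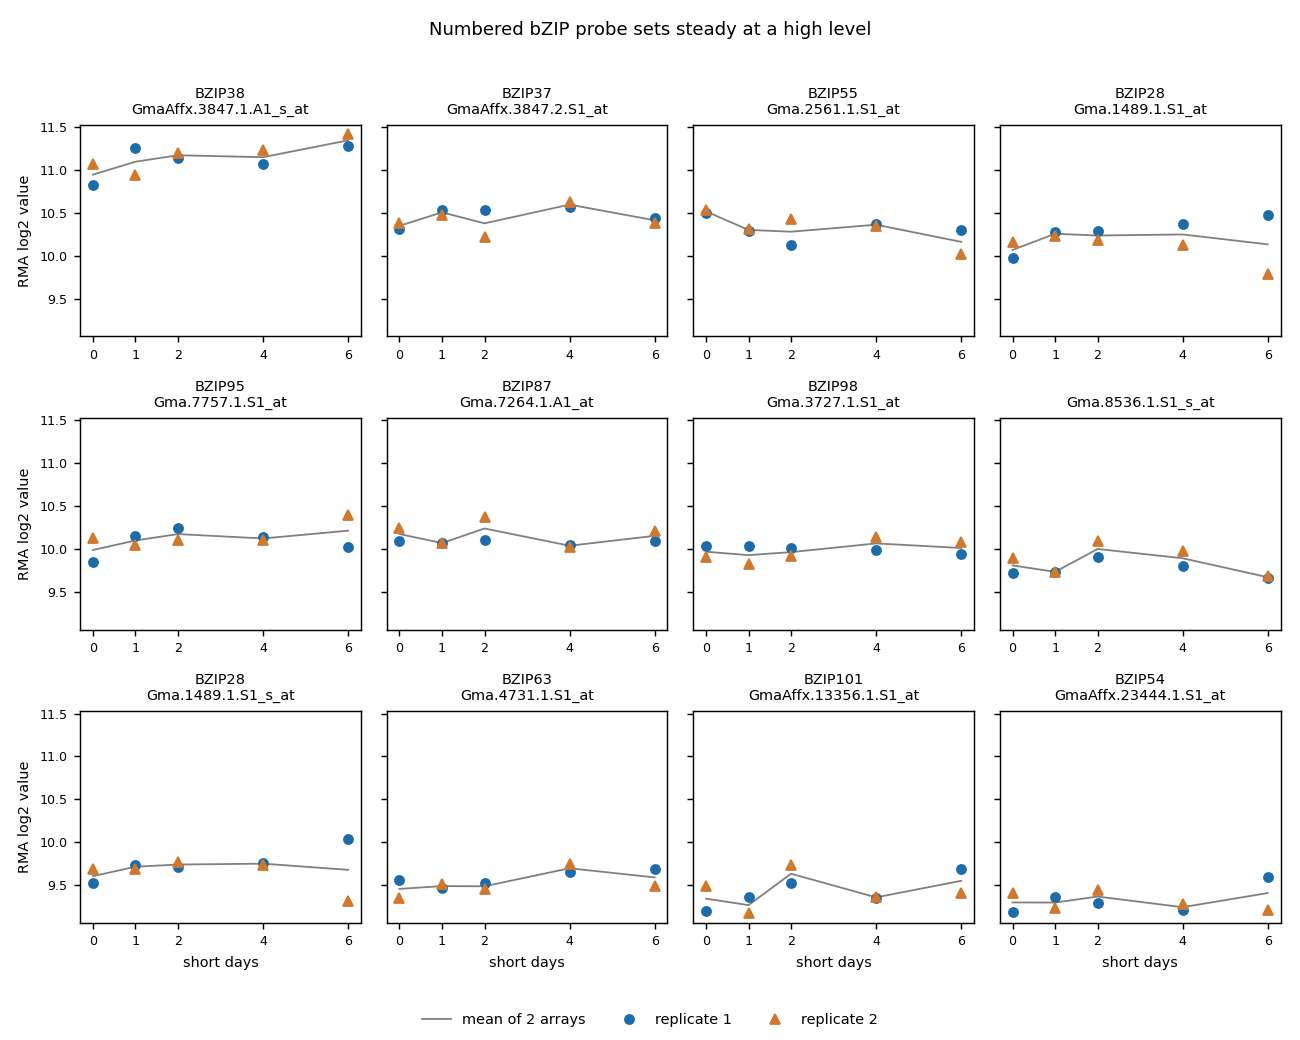
RMA log2 value (vertical axis) against the number of short days (horizontal axis) for the 12 steady numbered bZIP probe sets, with circles for replicate 1, triangles for replicate 2 and a line through the mean of the 2 arrays. BZIP38 is the brightest, at 10.82 to 11.42, and BZIP98 has the narrowest span of means, 0.14.

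BZIP98 was the flattest, and Gma.3727.1.S1_at had 10.03 and 9.90 at 0 SD, 10.03 and 9.82 at 1 SD, 10.01 and 9.91 at 2 SDs, 9.98 and 10.14 at 4 SDs, and 9.94 and 10.08 at 6 SDs. BZIP38 was the brightest, and GmaAffx.3847.1.A1_s_at had 10.82 and 11.07 at 0 SD, 11.26 and 10.94 at 1 SD, 11.14 and 11.20 at 2 SDs, 11.07 and 11.23 at 4 SDs, and 11.28 and 11.42 at 6 SDs. At a span of 0.40 it was also the steady member nearest the limit of 0.5. Both of its 6 SD arrays were above those of 0 SD, by 0.40 on average, without passing the test (limma adjusted p = 0.146). The other tested BZIP38 probe set, GmaAffx.93050.1.S1_at, was dimmer and not steady, with a span of 0.72 and values of 7.12 and 6.20 at 0 SD, 7.43 and 7.33 at 1 SD, 7.63 and 6.45 at 2 SDs, 7.18 and 7.24 at 4 SDs, and 7.44 and 6.94 at 6 SDs. The next high members outside the limit of 0.5 were BZIP53B (span of 0.65), BZIP124 (0.72) and BZIP59 (0.72).

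BZIP37 shares the first part of its probe set name with BZIP38, and its probe set GmaAffx.3847.2.S1_at had 10.32 and 10.38 at 0 SD, 10.53 and 10.48 at 1 SD, 10.53 and 10.22 at 2 SDs, 10.57 and 10.63 at 4 SDs, and 10.44 and 10.38 at 6 SDs. BZIP55 (Gma.2561.1.S1_at) had 10.50 and 10.54 at 0 SD, 10.29 and 10.31 at 1 SD, 10.13 and 10.43 at 2 SDs, 10.37 and 10.35 at 4 SDs, and 10.31 and 10.02 at 6 SDs. The BZIP55 arrays of 6 SDs were below those of 0 SD, by 0.36 on average, without passing the test (limma adjusted p = 0.168). The other tested BZIP55 probe set, Gma.2561.2.S1_a_at, was not steady: its means spanned 0.67, and it had 8.58 and 7.77 at 6 SDs, against 9.05 and 8.46 at 0 SD.

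BZIP28 was steady in its means but not in its replicates at 6 SDs. Gma.1489.1.S1_at had 9.98 and 10.16 at 0 SD, 10.28 and 10.23 at 1 SD, 10.29 and 10.18 at 2 SDs, 10.37 and 10.13 at 4 SDs, and 10.48 and 9.79 at 6 SDs. Gma.1489.1.S1_s_at had 9.52 and 9.68 at 0 SD, 9.73 and 9.69 at 1 SD, 9.71 and 9.76 at 2 SDs, 9.76 and 9.73 at 4 SDs, and 10.04 and 9.31 at 6 SDs. In each, the 6 SD replicates were the highest and the lowest of the 10 arrays.

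BZIP95 (Gma.7757.1.S1_at) had 9.84 and 10.13 at 0 SD, 10.15 and 10.05 at 1 SD, 10.24 and 10.11 at 2 SDs, 10.14 and 10.10 at 4 SDs, and 10.03 and 10.40 at 6 SDs. BZIP87 (Gma.7264.1.A1_at) had 10.10 and 10.25 at 0 SD, 10.07 and 10.07 at 1 SD, 10.11 and 10.37 at 2 SDs, 10.05 and 10.02 at 4 SDs, and 10.09 and 10.21 at 6 SDs. In neither did the 6 SD arrays lie apart from those of 0 SD. The second BZIP87 probe set, Gma.7264.2.S1_at, was also flat, at 8.52 to 8.83, but below the limit for a high level.

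BZIP63 (Gma.4731.1.S1_at) had 9.56 and 9.35 at 0 SD, 9.46 and 9.51 at 1 SD, 9.52 and 9.45 at 2 SDs, 9.65 and 9.74 at 4 SDs, and 9.68 and 9.49 at 6 SDs. BZIP54 (GmaAffx.23444.1.S1_at) had 9.19 and 9.40 at 0 SD, 9.35 and 9.23 at 1 SD, 9.29 and 9.44 at 2 SDs, 9.20 and 9.27 at 4 SDs, and 9.60 and 9.21 at 6 SDs. BZIP101 (GmaAffx.13356.1.S1_at) had 9.19 and 9.49 at 0 SD, 9.36 and 9.17 at 1 SD, 9.52 and 9.73 at 2 SDs, 9.34 and 9.36 at 4 SDs, and 9.69 and 9.41 at 6 SDs. In each of these the 6 and 0 SD arrays overlapped.

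BZIP36 is the soybean factor also called SOYSTF1A, a relative of the light-signal factor HY5 of Arabidopsis. Its own probe set, Gma.8536.1.S1_at, had 7.43 and 7.58 at 0 SD, 7.55 and 7.58 at 1 SD, 7.76 and 7.99 at 2 SDs, 7.79 and 7.80 at 4 SDs, and 7.48 and 7.31 at 6 SDs. Its 2 and 4 SD arrays were above the other 6, and the time course did not pass the test (limma adjusted p = 0.176). The steady probe set Gma.8536.1.S1_s_at, whose name has the same first part and which is listed with 2 symbols, had 9.72 and 9.90 at 0 SD, 9.73 and 9.73 at 1 SD, 9.90 and 10.10 at 2 SDs, 9.80 and 9.98 at 4 SDs, and 9.66 and 9.68 at 6 SDs. Both of its 6 SD arrays were below those of every earlier time point, without passing the test.

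In all, 37 tested members neither passed a test nor counted as steady at a high level. Of these, 17 had means within 0.5 of one another, and the lowest limma adjusted p of the time course among them was 0.0728, that of Gma.18028.1.S1_s_at, a probe set with 2 symbols that had 10.36 and 9.88 at 0 SD, 9.31 and 9.55 at 1 SD, 9.29 and 9.13 at 2 SDs, 9.39 and 9.73 at 4 SDs, and 9.80 and 10.29 at 6 SDs. Its course was a dip in the middle, and its 6 and 0 SD arrays overlapped. Differences of 6 SDs from 0 SD in the 37 ran from -0.58 to 1.59.

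The other 37 members were too dim to test, and 18 symbols had no tested probe set: BZIP9, BZIP21, BZIP35, BZIP44, BZIP48, BZIP50, BZIP58, BZIP61, BZIP69, BZIP72, BZIP81, BZIP82, BZIP83, BZIP85, BZIP94, BZIP112, BZIP125 and BZIP132. BZIP44 and BZIP132, which altered stress responses when overexpressed in Arabidopsis, had at most 5.01 and 4.86 in any array. The dim members ranged from 3.53 to 8.17 over all arrays. Dimness on the array does not show that a gene was silent.

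In the fit of all 37593 probe sets with no limit on brightness, 2 dim members passed, named here after their values were seen. In that fit 5 of the 93 members were higher at 6 SDs than at 0 SD (5.38%, against 2.88% of all). The share among dim probe sets alone was not counted. BZIP72 (Gma.5565.1.S1_at) had 5.09 and 5.12 at 0 SD, 5.16 and 5.00 at 1 SD, 5.14 and 4.92 at 2 SDs, 4.98 and 5.19 at 4 SDs, and 6.00 and 6.98 at 6 SDs. Its 6 SD arrays were above the other 8, with a difference from 0 SD of 1.39 and a limma adjusted p of 0.0279. BZIP69 (GmaAffx.38788.1.S1_at) had 5.49 and 5.80 at 6 SDs, against 4.85 and 5.05 at 0 SD, a difference of 0.69 with a limma adjusted p of 0.0478. For 16 of the 37 dim members (43.2%) replicate 2 of 6 SDs was the highest array, as it was for 36.7% of all dim probe sets. BZIP125 was high in that array alone, with 6.26 and 8.17 at 6 SDs, against 6.37 and 6.49 at 0 SD.

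Other bZIP factors and genes that work with bZIP factors were listed by gene symbol or by a RefSeq symbol or synonym, with the members' results known. Among 14 probe sets of bZIP factors whose platform symbol is not BZIP with a number, 7 were tested and none passed at any time (lowest limma adjusted p of the time course 0.222, with 1 below 0.05 before adjustment). The dim SOYGBFA, a G-box-binding factor picked out after its values were seen, had 6.84 and 7.10 at 6 SDs, against 4.92 and 5.47 at 0 SD. Of 18 probe sets of 14-3-3 proteins, which bridge FT and FD in the floral activation complex, 16 were tested and none passed (limma, 3 with an unadjusted p below 0.05 between 6 and 0 SD), with a median difference of -0.08 between 6 and 0 SD. The FT and TFL1 family had 2 probe sets, both dim, with a mean level of 3.91 to 4.16 at every time point. BZIP1, left out of the members, rose in both of its probe sets, to 11.42 and 11.14 at 6 SDs, against 6.51 and 6.56 at 0 SD, in the brighter.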

How the data were processed

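The study hybridized total RNA from soybean SAMs to Affymetrix Soybean GeneChips, 2 arrays at each of 5 time points. The authors deposited log2 values, background-corrected, quantile-normalized and summarized for each probe set with RMA in affylmGUI; no genome build is given in the sources used here. Of 37746 entries, 105 Affymetrix control and 48 rRNA probe sets were left out. The table holds no detection calls, so probe sets above the array median in at least 2 arrays were tested (20366). Time-point means were estimated with limma 3.58.1 in R 4.3.3, with 5 residual degrees of freedom, and 6 comparisons were made between time points; the whole course was judged from a moderated F over 3 polynomial terms. Benjamini-Hochberg adjustment ran over all tested probe sets of a comparison. In simulated arrays of 20366 probe sets, the comparison of 6 SDs with 0 SD recovered 31 of 67 changes of 1 on the log2 scale, 60 of 67 of 2 and 66 of 66 of 4. It also made 7 false calls. The simulated noise was normal and independent between arrays, and few probe sets were changed, so these rates need not hold for the real arrays. Members came from the platform annotation, and 87 of the 93 had every gene identifier in RefSeq (Glycine_max_v4.0). Values in every array are given for members past a test, steady members and the 3 largest differences at 6 SDs in each direction. Members, lists and limits were chosen with earlier results of these data known. Only 2 arrays a time point limit the precision.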

Additional observations from a re-analysis of the deposited data

How the results depend on the processing

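Direction was followed in the alternative runs for members past a test and for the 3 largest differences at 6 SDs each way. None of these changed direction in a run that tested them. Other members were not followed in this way. For BZIP111, the 6 SD arrays of GmaAffx.5069.1.S1_at (8.32 and 5.61) lay on either side of its 0 SD mean of 6.21. With no filter on dim probe sets, a second quantile normalization, a common median or the replicate number as a block, 5 members in place of 3 were higher at 6 SDs than at 0 SD (5.38% of members against 2.88% of all with no filter, and 8.93% against 4.66%, 4.49% and 4.54% in the other settings). The added members were BZIP72 and BZIP69 with no filter, the 2 tested BZIP62 probe sets under either normalization, and BZIP110 and BZIP16 with the replicate block. With a filter above the median in all 10 arrays, 1 member (BZIP80) was higher and 1 (BZIP71) lower (2.27% each, against 2.63% and 2.58% of all), 1 passed the time course (2.27%, against 2.67%) and 0 were higher at 6 than at 4 SDs, since Gma.8383.1.S1_at, BZIP46, BZIP47 and BZIP105 were then not tested. With an intensity trend and a robust prior, 1 member (BZIP105) was higher at 1 SD than at 0 SD and 0 at 6 than at 4 SDs, where Gma.8383.1.S1_at had an adjusted p of 0.105 from limma; a common median also called 1 (BZIP105) at 1 SD. Array weights, chosen after seeing the data, called 2 BZIP105 probe sets at 1 SD, 1 member higher at 6 SDs against 0 SD and 0 at 6 against 4 SDs. With a quadratic curve the time course of BZIP105 had a limma adjusted p of 0.560. The cause of these changes was not tested.

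Leaving out each array in turn left a lone array at a time point, assumed to vary like the others. The difference of 6 SDs from 0 SD then ran from -3.42 to -2.22 for BZIP46 and from -2.36 to -1.53 for BZIP47. It ran from -1.62 to -1.23 and from -1.52 to -1.06 for the BZIP71 probe sets. For BZIP80 it ran from 0.71 to 0.84, and for Gma.5483.1.S1_s_at of BZIP105 from 1.25 to 2.33. Which members passed a test changed between these runs, and so did the shares of all tested probe sets that passed. Without replicate 1 of 0 SD, only Gma.8383.1.S1_at and the brighter BZIP71 probe set passed at 6 SDs. With the 20366 probe sets kept (chosen after seeing the data) and replicate 1 of 6 SDs left out, 8 members passed the time course (14.3%, against 13.2% of all), 5 were higher at 6 SDs against 0 SD (8.93%, against 5.52%), and 3 higher (5.36%, against 3.52%) and 2 lower (3.57%, against 7.56%) at 6 against 4 SDs. With replicate 2 of 6 SDs left out in its place, 7 passed the time course (12.5%, against 3.12%), 8 were higher at 6 SDs against 0 SD (14.3%, against 3.48%) and 0 differed at 6 against 4 SDs. These 8 took in BZIP62, BZIP110 and BZIP111, with 2 probe sets each.

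Arrays with the same replicate number deviated from their time-point means with correlations of 0.193 to 0.618 among 0, 2, 4 and 6 SDs, and of -0.368 to -0.074 where 1 SD was in the pair, so the numbers were not taken as pairs and the replicate block, with 5 members higher at 6 SDs, is only an alternative. The 2 arrays a time point, and signal near background for dim members, limit the calls.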
